A study of Mus musculus with 18 samples.

Results

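RNA of the mouse colon was sequenced in 9 mice, and the 10 genes described here encode cytosolic receptors of the NOD-like family, the DNA sensor Aim2 and the adaptor Pycard. The members were chosen by name, as Nlrp3, Nlrp6, Nlrc4, Naip5, Naip6, Nod1, Nod2, Nlrx1, Aim2 and Pycard, with earlier results of these data known. All 10 have a row among the 47729 gene rows of the count table. Control WT mice (3, mice 1 to 3) had the treatment label Control. AOM-DSS WT mice (3, mice 4 to 6) received the carcinogen azoxymethane (AOM) once at 10 mg/kg and then dextran sulfate sodium (DSS) at 2.5% in 3 cycles, a schedule that gives colitis and colon tumors. AOM-DSS Claudin-2TG mice (3, mice 7 to 9) received the same agents and carried a *Cldn2* transgene under the villin promoter, which drives expression in the intestinal epithelium. The mice were C57BL/6. The deposited protocol text repeats the AOM and DSS schedule for the Control samples too, so these were grouped by their treatment label.

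NOD-like receptors sit in the cytosol and bind, directly or through partners, fragments of bacteria or signs of cell damage. NAIP proteins recognise flagellin and parts of bacterial secretion needles and then recruit NLRC4, while NLRP3, NLRP6 and AIM2 recruit the adaptor ASC, which *Pycard* encodes, to form an inflammasome that activates caspase-1. NOD1 and NOD2 recognise fragments of peptidoglycan and signal through RIPK2 to NF-kB. In the gut, *Nlrp6* is known chiefly from the epithelium and *Nlrp3* chiefly from myeloid cells, and NLRP6 is known for its links to mucus secretion and the microbiota.

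In short, *Nlrp6* and *Nod1* were lower in the AOM-DSS WT colon than in the Control WT colon and higher in the AOM-DSS Claudin-2TG colon than in the AOM-DSS WT colon. Between the treated groups, both calls were lost without mouse 5, 7, 8 or 9. The *Nod1* call against Control WT was lost without mouse 2 or 3. None of the other 7 tested members was called in the main edgeR fits of these comparisons. *Nod2* was called higher in AOM-DSS WT than in Control WT mice by DESeq2, with all 9 mice in the fit and without mouse 4. It was called lower in AOM-DSS Claudin-2TG than in AOM-DSS WT mice without mouse 4. *Nlrp3*, at 1 to 37 counts a mouse, was too low to pass the filter on low counts, and its counts were highest in mice 5 and 6 of the AOM-DSS WT group. The promoters of the 2 called genes are shown because both genes moved in the same direction in both comparisons. They are the 250 bases before a RefSeq start (GRCm38.p6), read 5′ to 3′ on the strand of the gene. The *Nlrp6* window is chr7:140920652-140920901 (+ strand) and the *Nod1* window is chr6:54972613-54972862 (- strand), each ending at the base next to the gene's start in the count table. Capitals mark a match to a motif.
Nlrp6: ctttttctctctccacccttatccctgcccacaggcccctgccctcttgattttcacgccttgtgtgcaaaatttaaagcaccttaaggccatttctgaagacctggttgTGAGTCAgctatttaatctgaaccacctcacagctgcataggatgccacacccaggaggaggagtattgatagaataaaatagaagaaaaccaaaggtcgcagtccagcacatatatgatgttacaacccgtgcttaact
Nod1: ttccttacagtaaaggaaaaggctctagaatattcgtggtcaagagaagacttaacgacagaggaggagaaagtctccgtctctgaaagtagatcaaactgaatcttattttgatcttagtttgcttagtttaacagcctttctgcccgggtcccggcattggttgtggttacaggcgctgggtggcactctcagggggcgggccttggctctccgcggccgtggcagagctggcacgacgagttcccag
The capitals in *Nlrp6* are a match to the AP-1 motif TGANTCA that begins 140 bases before the start. Of all 32851 windows of the same length, 6.75% held this motif on either strand, and *Nlrp6* was the 1 member of 10 that did. The other 5 motifs searched on both strands were HNF4 (CAAAGTCCA), NF-kB, the STAT motif TTCNNNGAA, IRF and CDX (TTTATNG), which 0.384%, 1.41%, 7.02%, 2.98% and 9.81% of all windows held. None of these 5 occurred in the windows shown. RefSeq gives *Nod1* another start, whose window (chr6:54971662-54971911, not shown) held 1 match to the STAT motif, 193 bases before that start. The *Nod1* window held 12 CpG and the *Nlrp6* window 3, where the median over all windows was 6.

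Libraries held 14142711 to 22262546 counts on genes, so that 3 counts correspond to 0.135 to 0.212 CPM (counts scaled to a common library size). The lanes of a library differed by no more than sampling noise (chi-square per degree of freedom 0.995 to 1.06), while mice of the same group differed by far more (16.8 to 66.3), and were added. *Cldn2* itself was at 192 to 259 CPM in Control WT, 119 to 137 CPM in AOM-DSS WT and 208 to 251 CPM in AOM-DSS Claudin-2TG mice. It was thus higher in the transgenic mice than in AOM-DSS WT mice (log2 fold change 0.78, SE 0.12, adjusted p = 0.0103), but the transgenic mice were not above Control WT mice (log2 fold change -0.03, SE 0.12, adjusted p = 0.897). Mouse 1 of Control WT had 214 CPM of *Xist* and a summed 0.498 CPM of 4 Y-linked genes, whereas in the other 8 mice *Xist* did not exceed 0.203 CPM and the Y-linked sum was 146 CPM or more, so sex was not the same in all mice. Mouse 4 stood apart from mice 5 and 6 in the markers given below.

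The order of the levels was read per kilobase of exon. In Control WT mice *Nlrp6* was the highest of the 10 members, with 63.2 ± 2.34 CPM per kilobase (SD, n = 3), and *Pycard* was next with 47.4 ± 2.17. In every Control WT mouse *Nlrp6* was above *Pycard*, at 1.28 to 1.36 times its level per kilobase. *Aim2* followed with 16.8 ± 1.27 CPM per kilobase and *Nlrx1*, which encodes a mitochondrial family member, with 12.9 ± 1.37. *Nlrc4* (9.26 ± 1.34), *Naip5* (8.34 ± 0.748), *Naip6* (8.17 ± 1.12) and *Nod1* (6.70 ± 0.814) formed a run in which each overlapped with the next in these mice. *Nod2* (0.394 ± 0.265) and *Nlrp3* (0.0318 ± 0.00898) were lowest and did not overlap with each other. In AOM-DSS WT mice *Pycard* was first, at 45.2 ± 4.22 CPM per kilobase, and *Nlrp6* second, at 24.3 ± 5.31, with no overlap between them. In AOM-DSS Claudin-2TG mice these 2 genes were level, at 50.2 ± 4.70 and 50.2 ± 8.44 CPM per kilobase. *Nod2* and *Nlrp3* were the lowest members in all 3 groups.

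**Figure D1:**
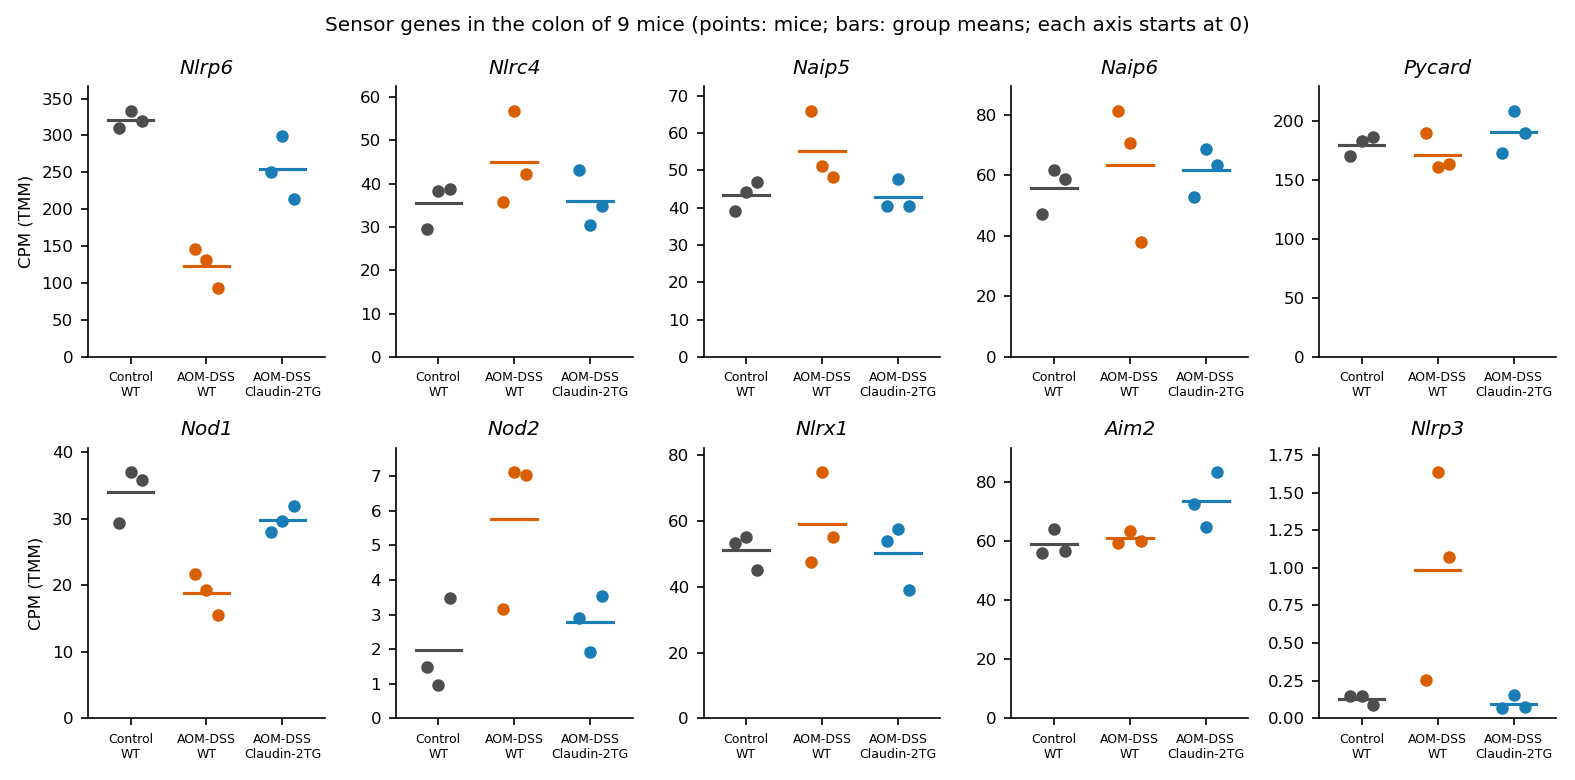
Expression of the 10 members in CPM (vertical axes, from 0, a scale for each gene) in 3 mice of each group, as points with the group mean as a bar. *Nlrp6* and *Nod1* are low in the 3 AOM-DSS WT mice and do not overlap with either other group, while *Nod2* and *Nlrp3* are highest in 2 of these 3 mice.

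The first comparison, of AOM-DSS WT with Control WT mice, asks how the WT colon after AOM and DSS differs from the Control colon. Of the 9 members tested, 2 were called at an adjusted p-value under 0.05, both lower, where 15% of all 15437 genes tested were called (8.04% higher and 6.92% lower). An unadjusted p-value under 0.05 was reached by 4 of the 9, where 32.6% of all genes reached it. Without overlap between groups were 3 of the 9 (*Nlrp6*, *Nod1* and *Naip5*), where 38% of all genes did not overlap (17.7% higher and 20.3% lower). The median log2 fold change of the 9 members was 0.21, beside 0.02 for all genes.

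*Nlrp6* (ENSMUSG00000038745, chr7:140920902-140929192, + strand, GRCm38) encodes a sensor for microbial ligands in intestinal epithelial cells. It was measured at 310, 333.7 and 320.1 CPM in Control WT mice and at 146, 131 and 93.7 CPM in AOM-DSS WT mice. All AOM-DSS WT mice were under all Control WT mice, and the lowest Control value was over the highest treated value by more than the range within either group. *Nlrp6* fell by 1.35 on the log2 scale (SE 0.16, 95% interval -1.73 to -0.97, adjusted p = 0.00664, edgeR quasi-likelihood test), to 0.385 of its Control mean. Without any 1 of the 6 mice the call held, with adjusted p-values up to 0.0430.

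*Nod1* (ENSMUSG00000038058, chr6:54923949-54972612, - strand) encodes the receptor for peptidoglycan fragments found mainly in Gram-negative bacteria. It was at 29.3, 37.0 and 35.8 CPM in Control WT mice and at 21.6, 19.3 and 15.5 CPM in AOM-DSS WT mice. Again no treated mouse reached the lowest Control mouse. *Nod1* fell by 0.83 on the log2 scale (SE 0.16, 95% interval -1.19 to -0.46, adjusted p = 0.0185). Its call was lost when mouse 2 (adjusted p = 0.0816) or mouse 3 (0.0720) of Control WT was left out.

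The other sensors grouped here as epithelial did not follow *Nlrp6*. These bulk data do not show which cells their RNA came from. *Nlrc4* (ENSMUSG00000039193, chr17:74426295-74459108, - strand), the partner of the NAIP proteins, was at 29.6, 38.3 and 38.7 CPM in Control WT and 35.8, 56.9 and 42.2 CPM in AOM-DSS WT mice. These ranges overlapped, and the log2 fold change was 0.36 (SE 0.19, adjusted p = 0.216). *Naip5* (ENSMUSG00000071203, chr13:100211739-100246323, - strand), which detects flagellin, was at 39.2, 44.2 and 46.8 CPM in Control WT and 66.0, 51.1 and 48.3 CPM in AOM-DSS WT mice. The treated mice all lay above the Control mice, the lowest of them narrowly, and the difference did not pass the test (log2 fold change 0.37, SE 0.15, adjusted p = 0.121). *Naip6* (ENSMUSG00000078942, chr13:100281121-100317674, - strand), also a flagellin receptor, was at 47.1, 61.6 and 58.7 CPM in Control WT and 81.3, 70.6 and 37.9 CPM in AOM-DSS WT mice. The treated mice lay on both sides of the Control range (log2 fold change 0.21, SE 0.26, adjusted p = 0.620). Values of both *Naip* genes are uncertain, because 32.3% of the 50-base windows of *Naip5* transcripts and 20.8% of those of *Naip6* also occur in another *Naip* gene, mostly each other. The ratio of *Nlrp6* to *Nlrc4* per kilobase was 6.24 to 7.91 in Control WT mice and 1.68 to 3.08 in AOM-DSS WT mice. The 95% intervals of the log2 fold changes of *Nlrp6* and *Nlrc4* (-0.07 to 0.79) did not overlap.

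*Pycard* (ENSMUSG00000030793, chr7:127989708-127993867, - strand), the adaptor shared by several inflammasomes, was at 171, 183 and 186 CPM in Control WT and 190, 161 and 164 CPM in AOM-DSS WT mice. The groups overlapped, and the 95% interval of its log2 fold change was -0.30 to 0.21. *Aim2* (ENSMUSG00000037860, chr1:173350879-173466040, + strand), a sensor of cytosolic DNA, was at 55.8, 63.9 and 56.6 CPM in Control WT and 59.2, 63.2 and 60 CPM in AOM-DSS WT mice. Its 95% interval was -0.16 to 0.31. *Nlrx1* (ENSMUSG00000032109, chr9:44252713-44268599, - strand) ranged from 45.0 to 55.2 CPM and from 47.6 to 74.8 CPM in the same groups (log2 fold change 0.23, SE 0.17, adjusted p = 0.388). *Aim2* and *Pycard* overlap a gene on the opposite strand (*Cadm3*, 24 to 163 counts a mouse, and Gm45205, 2 to 11 counts), and the strand setting of the count is not given in the sources used here.

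*Nod2* (ENSMUSG00000055994, chr8:88647315-88688474, + strand), the receptor for muramyl dipeptide, was at 1.49, 0.954 and 3.47 CPM in Control WT mice and at 3.15, 7.12 and 7.03 CPM in AOM-DSS WT mice. Mice 5 and 6 stood above all Control mice, and mouse 4 was within their range. The log2 fold change was 1.56 (SE 0.51, 95% interval 0.37 to 2.75, adjusted p = 0.0783) and was not called. It passed under DESeq2 (adjusted p = 0.0133), with all 9 mice in the fit (adjusted p = 0.0429) and without mouse 4 (adjusted p = 0.0249), and in none of the other 12 alternatives, where the adjusted p-value was up to 0.206. The log2 fold change was 1.22 without mouse 2 and 2.24 without mouse 3.

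*Nlrp3* (ENSMUSG00000032691, chr11:59541568-59566956, + strand), the myeloid sensor of ion efflux and cell damage, had 3, 3 and 2 counts in Control WT mice and 5, 37 and 16 counts in AOM-DSS WT mice. The counting intervals (exact Poisson, 95%) of mice 5 and 6, 1.17 to 2.29 and 0.647 to 1.84 CPM, lay above those of all Control WT mice, while that of mouse 4, 0.0848 to 0.610 CPM, overlapped with them. Summed over mice, the ratio of the rates was 8.05, with an exact interval of 3.83 to 19.5 that covers counting error only. Mouse 5 supplied 37 of the 58 counts, and without it the ratio was 4.86 (2.07 to 12.7). The gene did not pass the filter on low counts and so was not tested in the main comparison. It was called higher by DESeq2 (adjusted p = 0.0132) and without a filter (adjusted p = 0.0131). DESeq2 gave it no adjusted p-value in the comparison without AOM-DSS WT mice, so there too it passed through the group where it is high. With a mouse left out it passed the filter only through mice 5 and 6, where it is high, so that neither DESeq2 nor those fits lend it support. There it was called without mouse 4 (adjusted p = 0.00251) and not without mouse 1, 2 or 3 (0.0998 to 0.127).

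**Figure D2:**
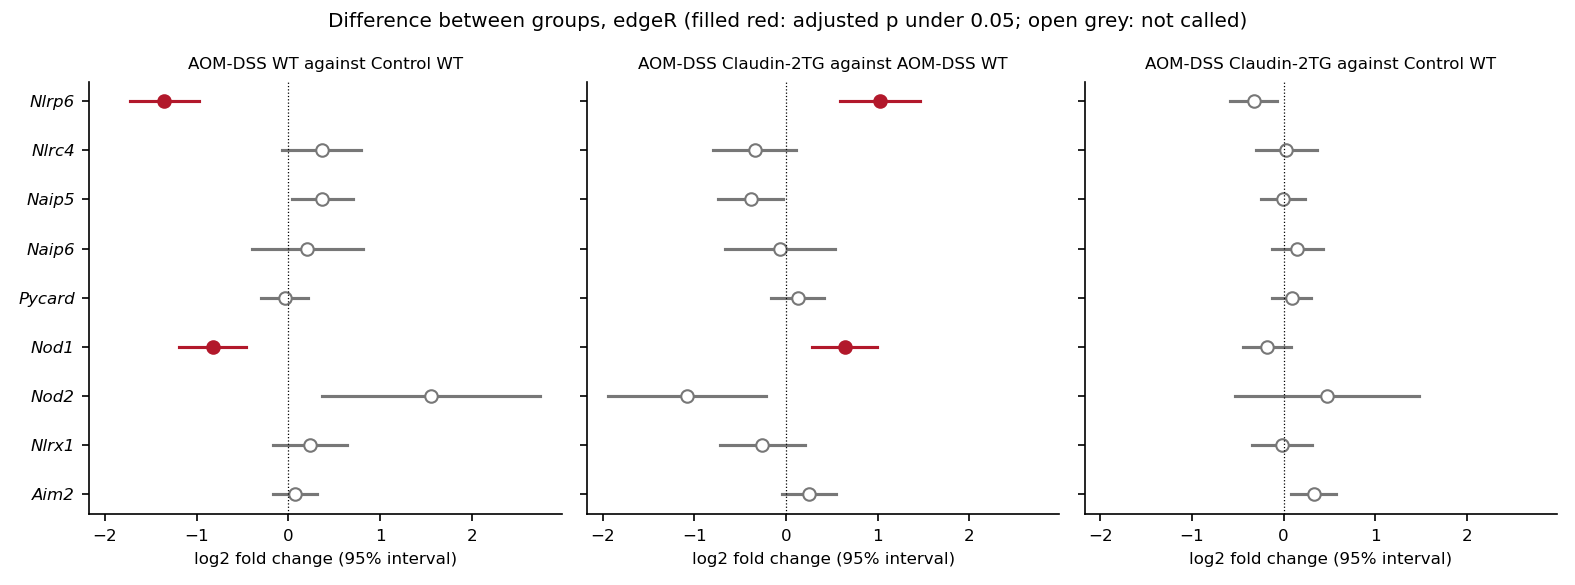
Log2 fold changes of the 9 tested members (horizontal axes) in the 3 comparisons, with 95% intervals as lines. Filled red points (*Nlrp6* and *Nod1* in the first and second panel) have an adjusted p-value under 0.05, with values of -1.35 and -0.83 in the first panel and 1.02 and 0.64 in the second, and open grey points were not called.

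The second comparison, of AOM-DSS Claudin-2TG with AOM-DSS WT mice, asks how the treated colon differs between the genotypes. There was no group of untreated transgenic mice. A changed response to AOM and DSS therefore cannot be told apart from a genotype difference present before treatment. This comparison shares the AOM-DSS WT mice with the previous one, so that a gene which happened to be low in these 3 mice would move in opposite directions in the pair. Again 2 of 9 members were called, *Nlrp6* and *Nod1*, both higher in AOM-DSS Claudin-2TG mice, where 9.54% of all 14888 genes tested were called (2.19% higher and 7.35% lower). An unadjusted p-value under 0.05 was reached by 4 of the 9, where 23.5% of all genes reached it. Groups did not overlap for 4 of the 9 (*Nlrp6*, *Nod1* and *Aim2* higher, *Naip5* lower), where 28.5% of all genes did not overlap (14.2% higher and 14.3% lower). The median log2 fold change of the 9 members was -0.06, beside 0.01 for all genes.

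*Nlrp6* was at 251, 299.5 and 214 CPM in AOM-DSS Claudin-2TG mice, against 146, 131 and 93.7 CPM in AOM-DSS WT mice. Every transgenic mouse was above every WT mouse of this treatment. The log2 fold change was 1.02 (SE 0.19, 95% interval 0.58 to 1.46, adjusted p = 0.0161), a ratio of means of 2.06. The call did not survive leaving out mouse 5 (adjusted p = 0.0536), mouse 7 (0.0597), mouse 8 (0.0801) or mouse 9 (0.0566), while the log2 fold change stayed between 0.87 and 1.17 under all alternatives run.

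*Nod1* was at 28.0, 29.6 and 32.0 CPM in AOM-DSS Claudin-2TG mice, against 21.6, 19.3 and 15.5 CPM in AOM-DSS WT mice. The lowest transgenic mouse was above the highest WT mouse. *Nod1* rose by a log2 fold change of 0.64 (SE 0.16, 95% interval 0.29 to 0.99, adjusted p = 0.0366). This call was the less stable of the pair. It was lost with library size as the only scaling (adjusted p = 0.0564), with at least 10 counts asked of every library (0.0511), on lane 1 alone (0.0954) and without mouse 5 (0.104), mouse 6 (0.0918), mouse 7 (0.0903), mouse 8 (0.123) or mouse 9 (0.128).

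Among the other sensors grouped as epithelial, *Nlrc4* was at 43.1, 30.4 and 34.8 CPM in AOM-DSS Claudin-2TG mice, overlapping with AOM-DSS WT mice (log2 fold change -0.34, SE 0.20, adjusted p = 0.368). *Naip5* was at 40.4, 47.7 and 40.6 CPM and lay just under the AOM-DSS WT mice (log2 fold change -0.39, SE 0.15, adjusted p = 0.169). *Naip6* was at 52.9, 68.5 and 63.3 CPM, inside the AOM-DSS WT range, with a log2 fold change of -0.06 (SE 0.26). The direction of *Naip6* was set by single mice, since it turned to 0.17 without mouse 4, 0.01 without mouse 5 and 0.04 without mouse 7.

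*Aim2* was at 72.3, 64.6 and 83.2 CPM in AOM-DSS Claudin-2TG mice, above the AOM-DSS WT range of 59.2 to 63.2 CPM. The margin was small beside the spread of the transgenic mice, and the difference was not called (log2 fold change 0.25, SE 0.13, adjusted p = 0.305). *Pycard* was at 173, 209 and 190 CPM, overlapping with AOM-DSS WT mice, and its 95% interval was -0.16 to 0.42. *Nlrx1* was at 54.0, 57.7 and 38.9 CPM, with a 95% interval of -0.72 to 0.20.

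*Nod2* was at 2.89, 1.93 and 3.55 CPM in AOM-DSS Claudin-2TG mice, under mice 5 and 6 and around mouse 4 of AOM-DSS WT (log2 fold change -1.08, SE 0.38, adjusted p = 0.120). It was called without mouse 4 (adjusted p = 0.00958). *Nlrp3* had 1, 3 and 1 counts in AOM-DSS Claudin-2TG mice, and the ratio of summed rates to AOM-DSS WT mice was 0.0952 with an exact interval of 0.0298 to 0.235, or 0.158 (0.0464 to 0.429) without mouse 5. Its highest transgenic mouse lay under its lowest AOM-DSS WT mouse in CPM, but the counting interval of mouse 4 overlapped with those of all 3 transgenic mice. *Nlrp3* was called lower by DESeq2 (adjusted p = 0.0214), with the same limit, and without a filter (0.00916). With a mouse left out it again passed the filter only through mice 5 and 6, and was called without mouse 4 (0.00173) and not without mouse 7, 8 or 9 (0.122 to 0.151).

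The last comparison, of AOM-DSS Claudin-2TG with Control WT mice, differs in both genotype and treatment, so the 2 cannot be told apart in it, and it reuses mice of both comparisons above. None of the 9 members was called by edgeR, where 10% of all 15013 genes tested were called (3.92% higher and 6.07% lower). An unadjusted p-value under 0.05 was reached by 2 of 9, where 26% of all genes reached it. DESeq2 called none either. Groups did not overlap for 2 of 9, where 31.2% of all genes did not overlap (14.9% higher and 16.3% lower). *Nlrp6* lay lower in all 3 transgenic mice (214 to 299.5 CPM) than in all Control WT mice (310 to 333.7 CPM), at -0.33 on the log2 scale (SE 0.12, 95% interval -0.59 to -0.07, adjusted p = 0.107). It was called when no filter was applied (adjusted p = 0.0312). *Aim2* was higher in all 3 transgenic mice (64.6 to 83.2 CPM) than in all Control WT mice (55.8 to 63.9 CPM), at 0.33 on the log2 scale (SE 0.11, adjusted p = 0.0983). *Nod1* overlapped between the groups, at a log2 fold change of -0.18 (95% interval -0.44 to 0.08). For *Nlrc4*, *Naip5*, *Naip6*, *Nlrx1* and *Pycard* the log2 fold changes lay between -0.02 and 0.15, and *Nod2* was at 0.48 (SE 0.45). *Nlrp3*, at 5 counts in all transgenic and 8 in all Control WT mice, had a ratio of rates of 0.766 (exact interval 0.197 to 2.65).

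Single members were also compared by a two-sided exact permutation test on log2 CPM. With 3 mice against 3 its smallest p is 0.1, so it cannot reach 0.05 in this design. By this exact permutation test p = 0.1 was reached by *Nlrp6* in all 3 comparisons, by *Nod1*, *Naip5* and *Nlrp3* in the first 2 and by *Aim2* in the last 2, so it does not set the called members apart from others that were not.

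Cell type markers were read in the same mice. Of all genes tested, 15%, 9.54% and 10% were called in the first, second and last comparison. Counts of called markers are to be read beside these shares. In bulk tissue, fewer cells of a type and less RNA per cell cannot be told apart. The libraries carried colon epithelium, with 10 epithelial markers (*Epcam*, *Cdh1*, *Vil1* and others) summing to 16760 to 18150 CPM in Control WT, 16880 to 20130 CPM in AOM-DSS WT and 18300 to 22260 CPM in AOM-DSS Claudin-2TG mice. None of these 10 markers was called by edgeR in the first 2 comparisons, while *Krt8* (log2 fold change 0.43, adjusted p = 0.0384) and *Cldn7* (0.31, adjusted p = 0.0483) were called higher in the last. Of 5 small-intestinal genes, *Lct* and *Apoa4* had at most 3 counts in every mouse. The 5 summed to 25.3 to 31.0 CPM in Control WT, 19.9 to 41.0 CPM in AOM-DSS WT and 50.4 to 55.8 CPM in AOM-DSS Claudin-2TG mice, the last above both others, with *Fabp6* called higher in the second comparison (log2 fold change 1.35, adjusted p = 0.0493) and *Rbp2* in the last (0.80, adjusted p = 0.0149). Per 1000 CPM of the epithelial markers, *Nlrp6* was at 18.5 ± 0.804 (SD, n = 3) in Control WT, 6.58 ± 0.901 in AOM-DSS WT and 12.5 ± 2.49 in AOM-DSS Claudin-2TG mice. The 3 groups did not overlap on this scale. *Nod1* on the same scale was at 1.95 ± 0.193, 1.004 ± 0.0780 and 1.45 ± 0.0683, also without overlap. *Krt8* and *Krt19*, both keratins, made up 51.4% to 58.9% of the epithelial sum in each mouse. Single markers differed in direction, with *Cdh1* (E-cadherin) at 1222 ± 232.5 CPM in AOM-DSS WT and 1623 ± 84.3 CPM in Control WT mice (SD, n = 3), a difference that was not called (adjusted p = 0.132). Per 1000 CPM of the other 8 epithelial markers, *Nlrp6* was at 38.3 to 39.6 in Control WT, 11.8 to 17.3 in AOM-DSS WT and 22 to 34.4 in AOM-DSS Claudin-2TG mice, again without overlap. The part of epithelial content in these results was not tested.

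Of 7 markers of the differentiated colonocyte, 2 were called in each of the first 2 comparisons, where 15% and 9.54% of all genes were. The 7 markers summed to 4386 to 6723 CPM in Control WT, 1568 to 4753 CPM in AOM-DSS WT and 5346 to 7705 CPM in AOM-DSS Claudin-2TG mice. The Control WT and AOM-DSS WT sums overlapped. The called markers were the same in both, since *Car4* (carbonic anhydrase 4) and *Aqp8* (a water channel) fell in AOM-DSS WT mice against Control WT mice (log2 fold changes -1.65 and -1.51) and rose in AOM-DSS Claudin-2TG against AOM-DSS WT mice (1.90 and 1.84). Of 7 goblet cell markers, *Clca1* was called lower in the first (-0.96) and higher in the second (0.98), and *Spink4* was called higher in the first. The part of these cell types in the *Nlrp6* and *Nod1* results was not tested. In mouse 4 of AOM-DSS WT the sum lay inside the Control WT range through *Car1* (carbonic anhydrase 1), at 1844 CPM there. A sum without *Car1* was formed after seeing the data. It was 3608 to 5000 CPM in Control WT, 1068 to 2909 CPM in AOM-DSS WT and 4621 to 6006 CPM in AOM-DSS Claudin-2TG mice. The AOM-DSS WT mice lay under both other groups in this sum. Singly, *Slc26a3*, *Guca2a*, *Ceacam20* and *Ms4a12* overlapped between Control WT and AOM-DSS WT mice.

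**Figure D3:**
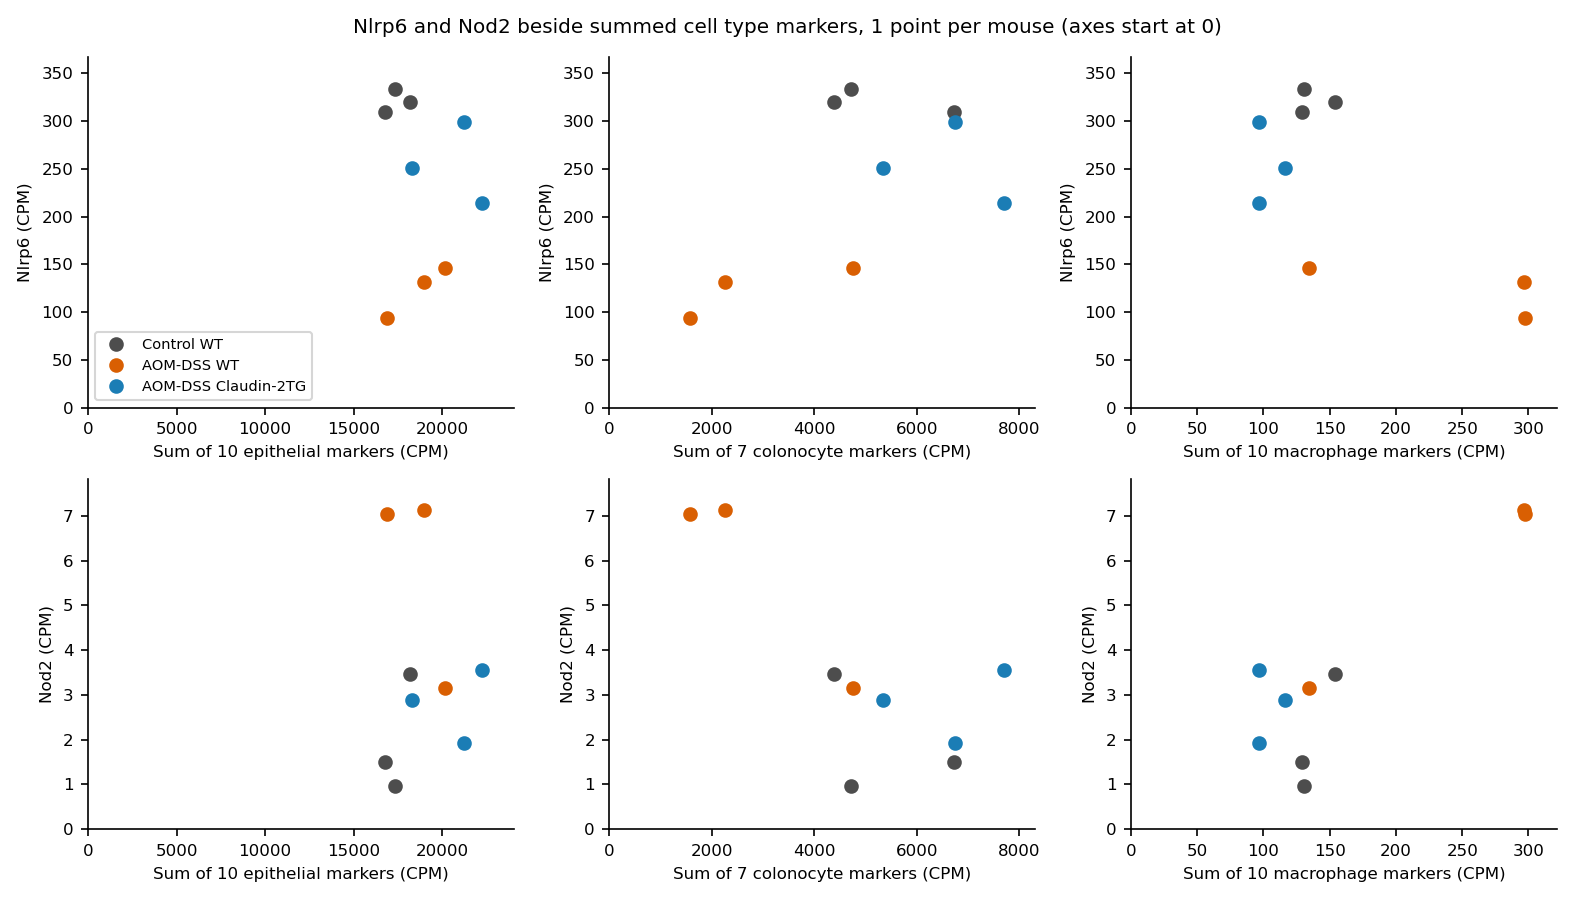
*Nlrp6* (upper row) and *Nod2* (lower row) in CPM against the summed CPM of epithelial, colonocyte (with *Car1*) and macrophage (with *Cd14*) markers, 1 point per mouse and axes from 0. *Nlrp6* of the AOM-DSS WT mice (93.7 to 146 CPM) is low at epithelial sums within or above the Control range, and *Nod2* is highest in the 2 mice with the highest macrophage sums.

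The 10 macrophage and monocyte markers summed to 129, 130 and 154 CPM in Control WT mice and 134, 296 and 298 CPM in AOM-DSS WT mice, and to 116, 96.3 and 96.5 CPM in AOM-DSS Claudin-2TG mice. In the first comparison 5 of 10 were called higher (*Csf1r*, *Cd68*, *Mrc1*, *C1qa* and *C1qb*), and in the second 6 of the 9 tested were called lower. *Cd14*, which was called in neither of these and was called lower in the last comparison (log2 fold change -0.44, adjusted p = 0.0274), made up 68.2% to 79.0% of this sum in Control WT and AOM-DSS Claudin-2TG mice and 46.2% to 54.4% in AOM-DSS WT mice. Without *Cd14* the sums were 27.3 to 40.7 CPM in Control WT mice, 61.2, 160 and 156 CPM in AOM-DSS WT mice and 21.4 to 36.9 CPM in AOM-DSS Claudin-2TG mice, so that mouse 4 also lay above every Control WT mouse. The level of *Nod2* per marker depended on this gene. Per 1000 CPM of all 10 markers, *Nod2* was at 23.5, 24.0 and 23.6 in AOM-DSS WT mice, just above the Control WT range of 7.33 to 22.6 and inside that of AOM-DSS Claudin-2TG mice (19.99 to 36.8). Per 1000 CPM of the 9 markers without *Cd14*, it was at 44.6 to 51.5 in AOM-DSS WT mice, inside the Control WT range of 35.0 to 85.4 and under that of AOM-DSS Claudin-2TG mice (78.5 to 134). *Nlrp3* per 1000 CPM of all 10 macrophage markers was at 1.89, 5.52 and 3.60 in AOM-DSS WT mice, above the Control WT range of 0.564 to 1.16. Without *Cd14* it was at 4.15, 10.2 and 6.86 there, and mouse 4 lay inside the Control WT range of 2.13 to 5.52. The AOM-DSS Claudin-2TG mice, at 1.87 to 7.11, then overlapped with AOM-DSS WT mice. Of the 8 neutrophil markers, *Ly6g* alone gave 137 to 207 CPM in Control WT, 298 to 327 CPM in AOM-DSS WT and 302 to 350 CPM in AOM-DSS Claudin-2TG mice, and the other 7 summed to at most 1.13 CPM in Control WT, to 2.24, 54.0 and 30.1 CPM in AOM-DSS WT and to at most 0.608 CPM in AOM-DSS Claudin-2TG mice. Of 6 T cell markers, 5 were called higher in the first comparison and 5 lower in the second. Of 5 B cell markers, *Cd79a* was called lower in the second. Of 6 fibroblast markers, *Col1a2* and *Col3a1* were called lower in the second, *Col1a2* was called lower in the last, and in the first the adjusted p-values of this pair were 0.147 and 0.118. All 6 smooth muscle markers had a negative log2 fold change in each of the 3 comparisons, and *Myh11* and *Acta2* were called lower in AOM-DSS Claudin-2TG than in Control WT mice. The part of myeloid and other cells in the *Nod2* and *Nlrp3* values was not tested.

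The 3 genes most like *Nlrp6* by Pearson's r of log2 CPM over the 9 mice, among 13916 genes with a mean of at least 1 CPM, were *Acsm3*, an acyl-CoA synthetase (r = 0.986), *Fut9*, a fucosyltransferase (r = 0.984), and *Greb1l* (r = 0.983). *Acsm3* was at 246 to 272 CPM in Control WT, 57.2 to 117 CPM in AOM-DSS WT and 179 to 220 CPM in AOM-DSS Claudin-2TG mice. Those most like *Nlrp3* were *Dmbt1*, a mucosal scavenger protein (r = 0.983), *Mocos*, a molybdenum cofactor sulfurase (r = 0.981), and *Rbms1*, an RNA-binding protein (r = 0.980). *Dmbt1* was at 7649 and 6615 CPM in mice 5 and 6 and at 3039 to 3976 CPM in the other 7 mice. *Mocos* and *Rbms1* were likewise highest in mice 5 and 6. The correlations of *Nlrp6* follow the group levels and those of *Nlrp3* follow mice 5 and 6, and both are a description.

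A further 69 genes of the same pathways, in 5 lists, were read alongside the members. These lists too were chosen with earlier results of these data known. In AOM-DSS WT against Control WT mice 14 of 59 tested (23.7%) were called, 13 higher and 1 lower, where 15% of all genes were. In AOM-DSS Claudin-2TG against AOM-DSS WT mice 12 of 59 (20.3%) were called, 2 higher and 10 lower, where 9.54% of all genes were. In AOM-DSS Claudin-2TG against Control WT mice 3 of 52 (5.77%) were called, all higher, where 10% of all genes were. Of the genes called in the first 2 comparisons, 4 of the 14 and 6 of the 12 did not pass the filter where AOM-DSS WT mice were not in the fit, so these counts lend the lists no support. In the last comparison no pathway gene was called by edgeR with library size as the only scaling, with all 9 mice in the fit or without mouse 8. These counts rest on single mice, and are 0 of 61 without mouse 2 in the first comparison and 0 of 61 without mouse 9 in the second.

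Of 13 other NLR genes, 8 were tested in each of the first 2 comparisons. *Naip1* and *Naip2*, the receptors for the needle and rod proteins of bacterial secretion systems, were the highest per kilobase (33.9 and 22.3 CPM per kilobase over all mice) and were called in neither. Their values are uncertain too, because 21.5% and 18.1% of their 50-base windows also occur in another *Naip* gene. *Ciita*, the NLR that drives MHC class II genes, was at 3.43, 1.41 and 3.13 CPM in Control WT and 7.32, 23.3 and 14.8 CPM in AOM-DSS WT mice, all treated mice above all Control mice. It rose by a log2 fold change of 2.53 (SE 0.48, adjusted p = 0.0194). *Nlrc5*, its counterpart for MHC class I genes, was at 8.59, 32.7 and 23.6 CPM in AOM-DSS WT and 3.996, 4.46 and 3.03 CPM in AOM-DSS Claudin-2TG mice. It fell by 2.51 on the log2 scale in the latter (SE 0.46, adjusted p = 0.0190).

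Of 12 AIM2-like receptors and other cytosolic sensors, 9 were tested in the first 2 comparisons. *Zbp1*, a sensor of Z-form nucleic acids, rose in AOM-DSS WT mice, and *Mndal* and *Mefv* (pyrin, an inflammasome sensor) were called higher there too. *Ifi203* fell in AOM-DSS Claudin-2TG against AOM-DSS WT mice (log2 fold change -2.13), and *Ifi207*, *Ifi209*, *Mndal* and *Mefv* were called lower, at -2.01 to -4.20. Those 4 genes did not pass the filter in the comparison without AOM-DSS WT mice, so they were tested through the group where they are high, and their calls lend no support. *Mndal*, for example, had 9, 17 and 22 counts in Control WT, 58, 63 and 36 in AOM-DSS WT and 0, 5 and 2 in AOM-DSS Claudin-2TG mice. *Zbp1*, the highest of the list per kilobase, was at 27.1, 28.8 and 57.5 CPM in Control WT and 81.1, 169 and 108 CPM in AOM-DSS WT mice, without overlap (log2 fold change 1.68, SE 0.37, adjusted p = 0.0295). *Sting1*, the adaptor of the cGAS pathway and next in level, was called in neither. The *Ifi* genes and *Mndal* are close relatives in 1 gene cluster, and each of those named was at most 3.10 CPM in every mouse, so their values are uncertain.

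Of 10 effector genes, 9 were tested in all comparisons. *Gsdmd* encodes gasdermin D, the pore-forming protein cleaved by inflammatory caspases. It was at 232, 226.5 and 209.5 CPM in Control WT mice and at 367.5, 377 and 414 CPM in AOM-DSS WT mice, with no overlap, and rose by a log2 fold change of 0.82 (SE 0.11, adjusted p = 0.00806). It was called higher in AOM-DSS Claudin-2TG than in Control WT mice too (0.41, SE 0.09, adjusted p = 0.0192). *Casp1*, the protease at the end of the pathway, was called in that comparison alone, at 160 to 169.5 CPM in Control WT and 203 to 209 CPM in AOM-DSS Claudin-2TG mice (log2 fold change 0.33, SE 0.09, adjusted p = 0.0360). Both calls of this comparison were lost with library size only, with all 9 mice in the fit and without mouse 8. *Il1b*, a caspase-1 substrate made mainly by myeloid cells, was at 0.697, 0.402 and 0.695 CPM in Control WT, 1.78, 18.8 and 10.0 CPM in AOM-DSS WT and 0.620, 0.456 and 0.886 CPM in AOM-DSS Claudin-2TG mice. Mouse 4 was again the lowest of its group (log2 fold changes 4.10 and -4.00, adjusted p = 0.0249 and 0.0322). *Il18*, the substrate known from epithelium, had the opposite direction, at 192, 156 and 107 CPM in Control WT, 110, 84.9 and 80.1 CPM in AOM-DSS WT and 127, 136 and 155 CPM in AOM-DSS Claudin-2TG mice. It was not called in the first comparison (log2 fold change -0.70, SE 0.22, adjusted p = 0.0710) and rose in the second (0.58, SE 0.15, adjusted p = 0.0490). This call of *Il18* was lost without mouse 5, 6, 7, 8 or 9. *Il1rn*, the antagonist of the IL-1 receptor, was called higher in AOM-DSS WT mice (0.64, SE 0.14, adjusted p = 0.0263).

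**Figure D4:**
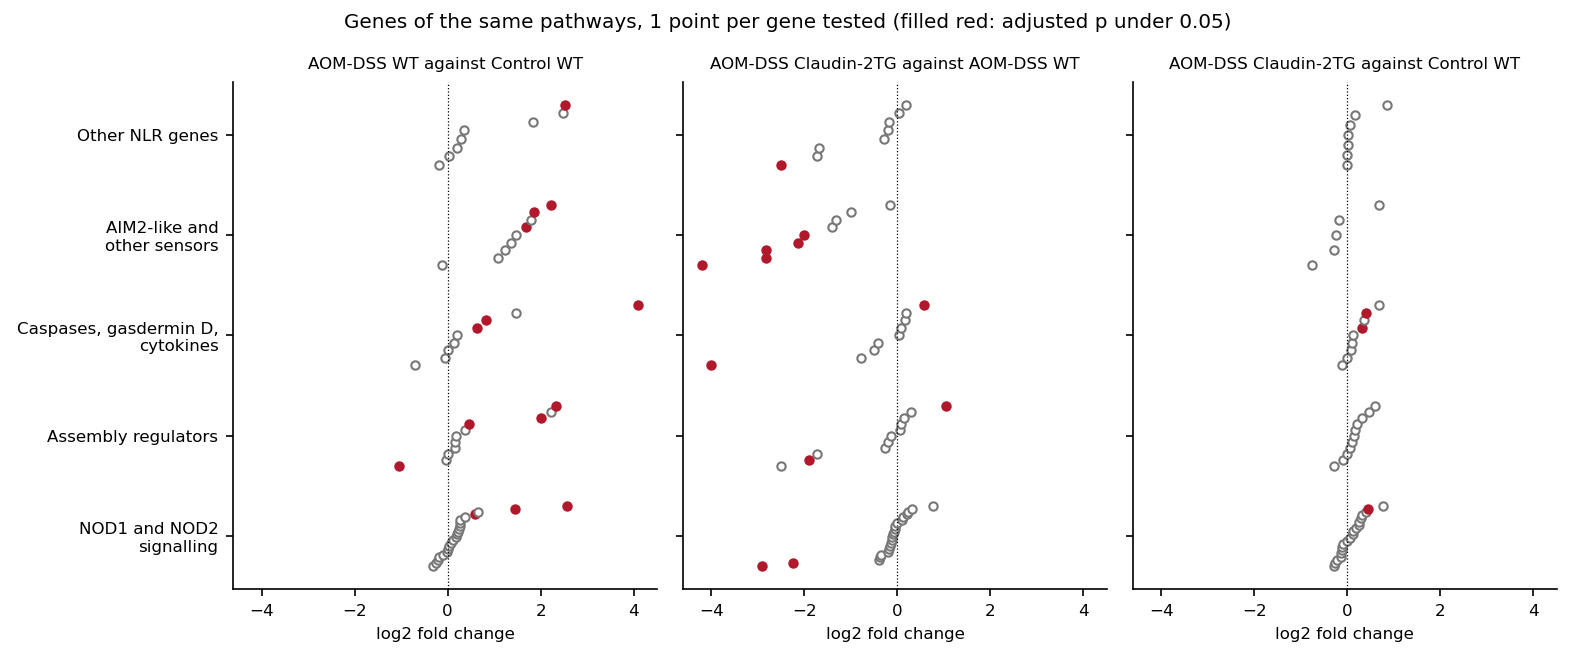
Log2 fold changes (horizontal axes) of the tested genes of the 5 pathway lists in the 3 comparisons, 1 point per gene, with filled red points for an adjusted p-value under 0.05. In the first panel 13 red points lie right of 0 and 1 left, in the second 2 lie right and 10 left, and in the third 3 lie right.

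Of 11 regulators of inflammasome assembly, *Txnip*, a thioredoxin-binding protein known as a partner of NLRP3, was the highest per kilobase. It was at 1008, 1406 and 839 CPM in Control WT, 652, 471 and 414 CPM in AOM-DSS WT and 1271, 890 and 1086 CPM in AOM-DSS Claudin-2TG mice. AOM-DSS WT mice lay under both other groups without overlap, and *Txnip* fell by 1.06 on the log2 scale in the first comparison (SE 0.24, adjusted p = 0.0277) and rose by 1.06 in the second (SE 0.21, adjusted p = 0.0183). The first of these calls was lost without mouse 1, 2, 3, 5 or 6. The second was lost without mouse 5, 6, 7, 8 or 9. *Pstpip1*, a partner of pyrin, *Gbp2*, an interferon-induced GTPase, and *Irf1*, an interferon-responsive transcription factor, rose in AOM-DSS WT mice with log2 fold changes of 2.02, 2.32 and 0.47. *Pstpip1* fell in AOM-DSS Claudin-2TG against AOM-DSS WT mice (-1.91, SE 0.31, adjusted p = 0.0114).

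Of 23 genes of NOD1 and NOD2 signalling, 22 were tested in the first 2 comparisons. *Ripk2*, the kinase next to both receptors, was at 7.58 to 10.6 CPM in Control WT and 11.5 to 12.5 CPM in AOM-DSS WT mice and was not called (log2 fold change 0.38, SE 0.18, adjusted p = 0.179). *Slc15a1*, a transporter of small peptides and the highest of the list per kilobase, was not called in either, and neither was *Otulin*, a deubiquitinase. *Atg16l1*, an autophagy protein, rose in AOM-DSS WT mice (log2 fold change 0.59). *Card9*, an adaptor of myeloid cells, and *Slc15a3*, a peptide transporter of endolysosomes, were called higher in the first comparison (1.46 and 2.57) and lower in the second (-2.24 and -2.90), but both, at no more than 5.62 CPM, were likewise tested only through the AOM-DSS WT mice. *Atg16l1* was called higher in AOM-DSS Claudin-2TG than in Control WT mice (0.44, SE 0.12, adjusted p = 0.0391), a call that was lost under the same 3 settings as that of *Casp1*. On lane 2, and with any mouse left out, not all of *Casp1*, *Gsdmd* and *Atg16l1* kept their calls in this comparison.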

How the data were processed

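The authors deposited raw whole-number read counts per gene, 1 column for each of 2 lanes of 9 libraries, made with featureCounts of Subread on GRCm38. The labels name HISAT2 as the aligner and the study's methods name TopHat2. Versions and the strand setting are not given in the sources used here. No column is an authors' comparison, and all 18 lane columns were used.

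Lanes were added per library, and symbols came from GENCODE M21, which lists 47310 of 47729 identifiers. Each comparison was fitted in edgeR 4.0.16 (R 4.3.3) on the 6 mice of 2 groups, with TMM scaling, filterByExpr (minimum count 10, minimum total 15), a robust quasi-likelihood fit with Benjamini-Hochberg adjusted p-values across every gene in the fit. A gene is called at an adjusted p under 0.05. CPM use TMM factors over the 9 mice. Alternatives were DESeq2 1.42.0, other scalings and filters, all 9 mice in 1 fit, each lane, and each mouse left out. The labels give 9 separate libraries, and if these were not separate animals the p-values would measure technical spread only. The steps were tested on simulated data. Other steps used Python 3.11.15, pandas 2.3.3, scipy 1.17.1 and matplotlib 3.10.9.

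The members and all gene lists were chosen with earlier results of these data known. Beyond the members, the text names of each pathway list the 2 genes highest per kilobase, the 2 called genes with the largest change in each of the first 2 comparisons, and the 3 genes most like Nlrp3 and Nlrp6. Ifi203, Ifi207, Casp1, Il1rn, Atg16l1, Ripk2 and the markers were named in addition, with their values known. Promoter windows came from RefSeq, which held all 10 members. Marker sums without Cd14, Car1, or Krt8 and Krt19 were added after seeing the data.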

Additional observations from a re-analysis of the deposited data

How the results depend on the processing

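With 3 mice a group, counts of calls depended on single mice, and depth limited Nlrp3, at 1 to 37 counts a mouse. The number of members called in AOM-DSS WT against Control WT mice (2) was 4 under DESeq2 and 1 to 4 with a mouse left out, where Nlrp3 counted among the 4. In AOM-DSS Claudin-2TG against AOM-DSS WT mice (2) it was 1 with library size only, with at least 10 counts in every library and on lane 1, and 0 to 4 with a mouse left out. In AOM-DSS Claudin-2TG against Control WT mice (0) it was 1 with no filter and 0 to 0 with a mouse left out. All genes called in these comparisons (2310, 1421 and 1501) ranged over 135 to 4080, 58 to 2894 and 525 to 1383 with a mouse left out, and the first was lowest without mouse 2 and highest without mouse 4. They were 2183 under DESeq2, 908 with at least 10 counts in every library and 2136 with all 9 mice in the second, and 2567 with no filter and 445 with all 9 mice in the third. With library size only, calls in the third split into 276 higher and 1310 lower, against 589 and 912. Pathway genes called (14, 12 and 3) were 0 to 23, 0 to 21 and 0 to 2 with a mouse left out. In the first they were 22 under DESeq2, 9 with no filter and 9 with at least 10 counts in every library. In the second they were 19 under DESeq2, 3 with at least 10 counts in every library and 5 on lane 2. In the third they were 5 under DESeq2, 0 with library size only, 9 with no filter, 0 with all 9 mice and 1 on lane 2.

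Of 405 member values recomputed, 368 kept direction and call, 14 lost a call (Nlrp6 and Nod1), 5 gained one (Nod2 and Nlrp6) and 18 changed sign, all of log2 fold changes near 0 that were not called. In AOM-DSS Claudin-2TG against Control WT mice, with a mouse left out, Naip5 ranged from -0.0975 to 0.0438, Nlrc4 from -0.1328 to 0.1359 and Nlrx1 from -0.1358 to 0.1306. Naip5 was 0.0024 on lane 1, Nlrc4 was -0.0860 with library size only and -0.1272 on lane 2, and Pycard was -0.0245 with library size only. Naip6 with a mouse left out ranged from -0.3144 to 0.1690 in AOM-DSS Claudin-2TG against AOM-DSS WT mice and from -0.0202 to 0.4673 in AOM-DSS WT against Control WT mice, where Pycard ranged from -0.1265 to 0.0101. The causes were not tested. No paired analysis was possible because the groups share no replicate numbers.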
